A study of Homo sapiens with 10 samples.

Results

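The genes described here encode splicing factors of the SNRP, LSM, SRSF, HNRNP, SF3A and SF3B families and the U2AF proteins, measured in IMR90 cells, a human fibroblast line from fetal lung. Members were the probe sets that the platform's annotation gives exactly 1 gene symbol starting with one of these prefixes, or the symbol U2AF1 or U2AF2. The rule found 70 genes on 200 probe sets, out of 19775 genes on 41091 probe sets with 1 symbol. It also caught 5 genes that only share a prefix with a family, so 65 genes on 194 probe sets are splicing factor family members, namely 12 SNRP, 13 LSM, 10 SRSF, 19 HNRNP and 11 SF3 and U2AF genes. Another 25 probe sets carry several symbols including one that matches, among them those naming SRSF2, SRSF9 or HNRNPH2, and were not used.

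The study hybridised total RNA of proliferating cells at 28 population doublings to 5 Affymetrix HG-U133 Plus 2.0 arrays and RNA of senescent cells at 90 population doublings to another 5. All cells were grown at 3% oxygen in medium with 10% serum. The senescent cells had been passaged until growth stopped and then kept for 2 weeks. Neither group carries a named knockdown, transgene or drug, and number of doublings changes together with growth state, so the effects of the 2 cannot be told apart. Whether the 5 arrays of a group are 5 cultures is not stated, and p-values therefore reflect the spread of these samples alone, part of which may be technical. All 11 fibroblast markers checked, such as COL1A1 and VIM, had clear signal, and 5 of 5 leukocyte and 6 of 7 endothelial markers were below the 60th percentile of every array (log2 4.64 to 4.77), the exception being TEK. Of 5 smooth muscle markers 4 had signal, among them ACTG2 at 12.4 to 13.4 and MYH11 at a mean of 5.94 in proliferating and 5.22 in senescent samples, and DES was below that percentile throughout. The summed log2 level of these 5 was 33.3 to 34.8 in proliferating and 33.5 to 33.9 in senescent samples. Of 8 epithelial markers 4 (CDH1, KRT8, CLDN4, NKX2-1) were below the percentile on every array. The other 4 had signal: KRT18 at 9.31 to 10.08 and SFTPC at 7.25 to 7.93 over all arrays, EPCAM at a mean of 6.49 in proliferating and 4.18 in senescent samples, and KRT19 at 5.41 and 4.15. The summed log2 level of the 8 was 38.3 to 38.9 in proliferating and 34.2 to 35.7 in senescent samples. The part of these markers in the results was not tested.

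Splicing removes introns from newly made RNA. The spliceosome that does this is built from small nuclear RNAs wrapped in a ring of Sm proteins, which SNRP genes encode, or of the related Lsm proteins around U6. SF3A, SF3B and U2AF proteins recognise the 3' end of the intron together with U2, SR proteins (SRSF genes) mainly promote the use of exons they bind, and hnRNP proteins coat nascent RNA and often oppose it. Many of these genes also hold exons or introns whose use leads to decay of their own transcripts.

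Most genes of these families were lower in senescent cells. Of the 65 genes, each taken by its brightest probe set, 58 fell, 2 rose and 5 did not pass limma's adjusted threshold of 0.05, where 30.3% of all 12909 genes tested fell and 31.0% rose. The median log2 difference, senescent minus proliferating, was -0.70 over the families and 0.04 over all genes tested. All 65 genes passed the filter on low values, and 61 of them lay above the 60th percentile on every array. The shifts were moderate in size: 19 genes fell by at least 2-fold and none rose that far, against 10.2% and 10.0% of all genes, and the differences ran from -2.99 (LSM2) to 0.72 (LSM10). The senescent values lay entirely below the proliferating values for 52 genes and entirely above for 2, where the same held for 25.1% and 26.7% of all genes tested. In these bulk samples fewer expressing cells and less RNA per cell cannot be told apart, and the values are relative to the other genes of each array.

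**Figure D1:**
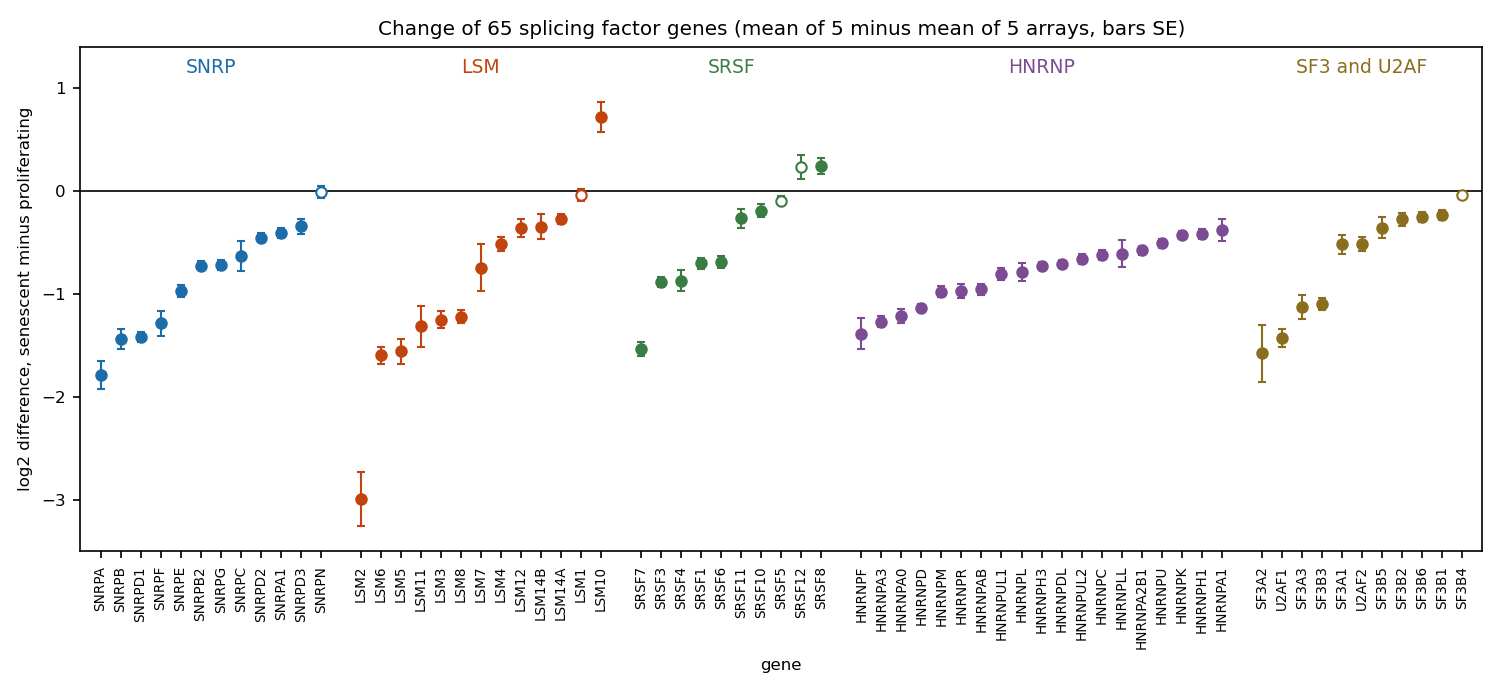
Each point is the log2 difference of 1 gene, the mean of 5 senescent minus the mean of 5 proliferating arrays, with its standard error as the bar. Filled points passed limma's adjusted threshold and open points did not. Only LSM10 and SRSF8 are filled above 0, and LSM2 lies lowest at -2.99.

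A sign of RNA integrity moved with the groups. The 3' minus 5' difference of the ACTB control probe sets averaged 2.07 ± 0.14 (SD, n = 5) for proliferating and 2.32 ± 0.10 (SD, n = 5) for senescent arrays, with an exact permutation p of 0.00794, the smallest that 252 assignments allow, and that of GAPDH differed by 0.15 (exact permutation p = 0.135). With the ACTB difference as a covariate 50 of the 65 genes fell and 1 rose, and the median was -0.73. The ACTB difference did not overlap between the groups, with 2.19 the highest proliferating and 2.24 the lowest senescent value. Covariate and growth state are therefore largely confounded, and calls kept or lost in that fit, here and below, do not tell their effects apart. Over all 12909 genes 3342 fell and 3034 rose in that fit, against 3909 and 4004 without the covariate. By family, 10 SNRP, 7 LSM, 6 SRSF, 19 HNRNP and 8 SF3 and U2AF genes fell in that fit.

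Among the 12 SNRP genes 11 fell and none rose, with a median of -0.72. The 7 genes of the Sm ring, SNRPB, SNRPD1, SNRPD2, SNRPD3, SNRPE, SNRPF and SNRPG, all fell, with differences between -1.44 and -0.34. SNRPD1 was at 12.96, 13.03, 13.07, 12.98 and 13.17 on proliferating arrays 1 to 5 and at 11.68, 11.62, 11.68, 11.56 and 11.58 on senescent arrays 1 to 5 (log2 values, in this order here and below). The groups were far apart, and SNRPD1 fell by 1.42 on the log2 scale (SE 0.05, limma's adjusted p = 4.4e-09), which is 2.67-fold lower. SNRPB fell by 1.44, from 8.13 ± 0.20 to 6.69 ± 0.09 (SD, n = 5 each), SNRPF fell by 1.28 and SNRPE fell by 0.97. SNRPG, SNRPD2 and SNRPD3 differed by -0.71, -0.45 and -0.34. The proteins of the ring assemble in equal numbers, and its genes differed in the size of their fall.

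All 4 SNRP genes of proteins particular to the U1 or U2 particle fell too. The remaining U1 protein gene, SNRNP70, which lies outside the families by its symbol, differed by -0.04 and did not pass (limma's adjusted p = 0.34). SNRPA, which encodes a protein of U1, had the largest fall of the family: its values were 8.26, 8.65, 8.13, 8.39 and 8.75 in proliferating cells and 6.46, 6.83, 6.43, 6.68 and 6.85 in senescent cells. No value overlapped, and the difference was -1.79 (SE 0.14, limma's adjusted p = 1.1e-06). SNRPC, another U1 gene, fell by 0.63 but overlapped, with senescent array 5 at 8.02 and the lowest proliferating array at 8.00, and it did not pass with the ACTB covariate (-0.49, limma's adjusted p = 0.095). The U2 genes SNRPB2 and SNRPA1 differed by -0.73 and -0.40. SNRPN, a paralogue of SNRPB known mainly from brain, was measured here by 1 probe set near background (3.25 ± 0.11 and 3.24 ± 0.06, SD, n = 5 each), so its level is not resolved here.

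Of the 13 LSM genes 11 fell and LSM10 rose, with a median of -0.74, which was -1.22 over 11 genes without shared probe sets and -0.50 with the ACTB covariate. Lsm proteins 2 to 7 are shared between a nuclear ring, completed by LSM8, that holds U6 RNA, and a cytoplasmic ring, completed by LSM1, that promotes mRNA decapping. All 7 genes from LSM2 to LSM8 fell, with a median of -1.25. LSM2 had the largest difference of any family member, with values of 6.25, 7.51, 6.47, 6.38 and 6.61 in proliferating and 3.94, 3.08, 3.68, 3.45 and 4.09 in senescent cells. It fell by 2.99 (SE 0.26, limma's adjusted p = 3.2e-06), but its senescent values lay below the 60th percentile of their arrays, where the background correction bears most on a value. Proliferating array 2 was the highest of its group.

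The differences were -1.60 for LSM6, -1.56 for LSM5, -1.25 for LSM3 and -0.51 for LSM4, all called lower. LSM7 was at 9.79, 10.80, 9.48, 9.54 and 10.04 in proliferating and at 9.17, 9.26, 8.90, 9.14 and 9.47 in senescent cells. Its groups barely separate, at 9.48 against 9.47, and its fall of 0.74 (SE 0.23, limma's adjusted p = 0.018) was -0.04 with the ACTB covariate (limma's adjusted p = 0.88).

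The subunits that distinguish the rings differed. LSM8 was at 9.76, 9.53, 9.81, 9.66 and 9.58 in proliferating cells and at 8.46, 8.37, 8.38, 8.49 and 8.56 in senescent cells, so that LSM8 fell by 1.22 (SE 0.06, limma's adjusted p = 7.6e-08). LSM1 was at 12.10, 12.05, 12.10, 12.06 and 12.24 in proliferating cells and at 12.06, 12.11, 12.12, 12.15 and 11.92 in senescent cells. These ranges overlap, and the difference of -0.04 (SE 0.06) did not pass (limma's adjusted p = 0.57), although it did at -0.13 with arrays centred on housekeeping genes (limma's adjusted p = 0.043). The change of LSM8 minus that of LSM1 was -1.18 (exact permutation p = 0.00794 over 10 arrays, the same after adjustment over the 2 partner comparisons made). This adjustment does not cover the choice of the pairs, and LSM8 alone already separated the groups.

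**Figure D2:**
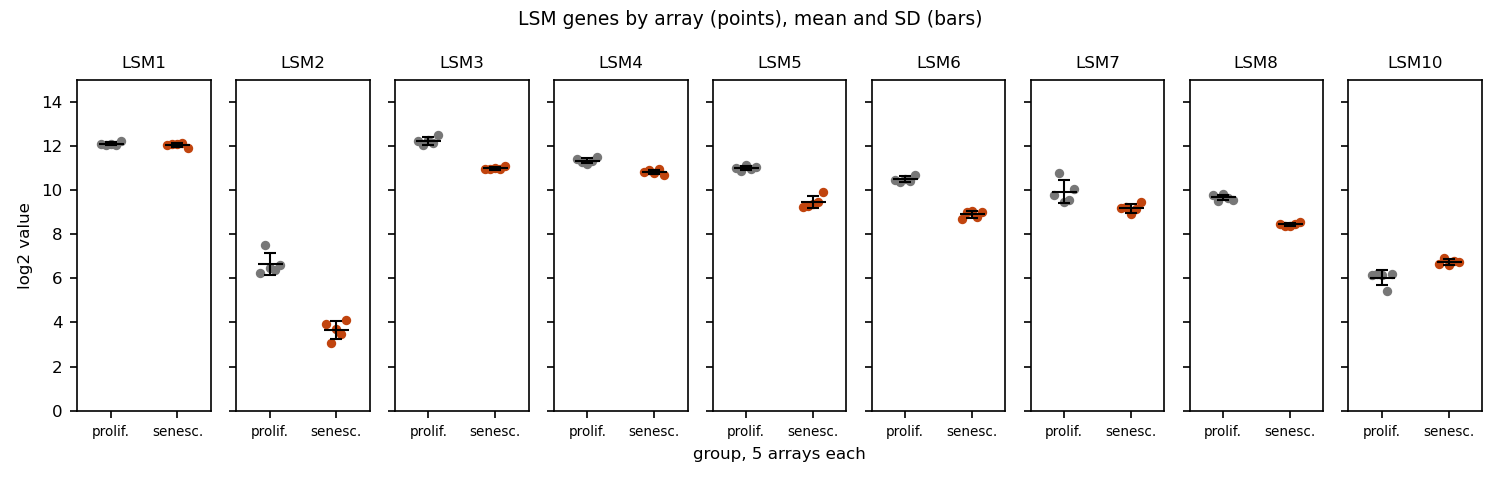
Log2 values of LSM1 to LSM8 and LSM10 on each of the 10 arrays (points), with the mean and SD of each group of 5 (bars). LSM1 lies at about the same height in both groups, LSM2 drops from 6.64 to 3.65, and LSM10 is the gene that is higher in senescent cells.

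LSM10 and LSM11 replace a pair of Sm proteins in the ring of U7, the particle that cuts the 3' end of replication-dependent histone RNA. LSM11 fell by 1.31 (9.11 ± 0.14 to 7.80 ± 0.46, SD, n = 5 each, limma's adjusted p = 0.00019), with senescent array 5 lowest at 7.02. LSM10 was at 6.15, 6.20, 6.15, 5.45 and 6.20 in proliferating and at 6.66, 6.93, 6.60, 6.79 and 6.75 in senescent cells, so proliferating array 4 stands below its group and all senescent values are higher. LSM10 rose by 0.72 (SE 0.14, limma's adjusted p = 0.0014). The changes of LSM11 and LSM10 differed by -2.03 (exact permutation p = 0.00794). Each gene alone separated the groups, in opposite directions, so this p-value was fixed by those results and adds nothing to them. LSM12, LSM14A, a component of cytoplasmic P-bodies, and LSM14B also fell (-0.36, -0.27 and -0.35). None of these 3 passed with the ACTB covariate, and LSM14B did not pass without proliferating array 2 or 4 or senescent array 3 or 5 (limma's adjusted p = 0.055 to 0.063) or with the replicate block (0.056).

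The SRSF family was the most mixed. By the brightest probe set 7 of 10 genes fell, SRSF8 rose and 2 did not pass, with a median of -0.48. The 7 include SRSF11, whose probe sets went both ways. With the mean of probe sets 6 fell and 2 rose, and without probe sets named as shared between transcripts 5 of 8 fell and 2 rose, with a median of -0.81. By the brightest probe set SRSF7 had the largest fall: its values were 12.53, 12.46, 12.57, 12.50 and 12.79 in proliferating and 11.07, 11.14, 11.08, 10.96 and 10.93 in senescent cells. They are well separated, by -1.53 (SE 0.07, limma's adjusted p = 2.6e-08), which is 2.89-fold lower. That probe set is named as shared. The SRSF7 probe sets 201129_at and 213649_at, which are not, differed by -0.79 and -1.02. Both fell by less than the brightest (limma's adjusted p of the divergence 0.0015 and 0.0090), so the size of the fall depends on the probe set. SRSF3, the shortest SR protein and known to bind the exons of its own family, differed by -0.88, SRSF4 by -0.87, SRSF1, an early described SR protein, by -0.70 and SRSF6 by -0.69, and all passed.

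SRSF10 fell by 0.19, and the brightest probe set of SRSF11 fell by 0.26. On this brightest probe set SRSF10 lost its call without proliferating array 3 or 4 or senescent array 2 (limma's adjusted p = 0.050 to 0.053). All 5 SRSF10 probe sets were called lower, however, the others at -0.97 (204299_at), -0.79 (213594_x_at), -0.46 and -0.40. The first 2 of these fell by more than the brightest (limma's adjusted p of the divergence 2.0e-05 and 0.00083). SRSF11 lost its call without any one of 7 arrays (limma's adjusted p = 0.053 to 0.072) and with the replicate block (limma's adjusted p = 0.072), and its probe sets disagreed, as described below. SRSF5 was almost level, at 12.62 ± 0.06 and 12.52 ± 0.07 (SD, n = 5 each), with a difference of -0.09 that did not pass (limma's adjusted p = 0.12; 0.019 with housekeeping centring). SRSF8 was at 9.71, 9.71, 9.74, 9.58 and 9.41 in proliferating and 9.79, 9.79, 10.06, 9.83 and 9.92 in senescent cells. These groups do not overlap, but the rise of 0.25 (limma's adjusted p = 0.018) was 0.15 with housekeeping centring (0.21) and 0.17 with the ACTB covariate (0.27) and no longer passed. SRSF12 differed by 0.24 at background level and did not pass.

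By their brightest probe sets all 19 HNRNP genes fell, and none of their senescent values reached a proliferating value. The median was -0.73 and the range -1.38 to -0.38, the narrowest range of the 5 families. HNRNPF, whose product binds runs of G in RNA, was at 10.69, 10.58, 10.83, 10.73 and 10.86 in proliferating and 9.58, 9.60, 9.40, 9.43 and 8.75 in senescent cells. Senescent array 5 lies apart at the low end, and HNRNPF fell by 1.38 (SE 0.15, limma's adjusted p = 1.7e-05). HNRNPA3, HNRNPA0 and HNRNPD (AUF1, a protein of AU-rich mRNA decay) differed by -1.27, -1.21 and -1.13.

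Of all 65 genes HNRNPD had the smallest adjusted p. It was at 14.03, 14.06, 14.00, 14.07 and 14.09 in proliferating and 12.98, 12.91, 12.87, 12.92 and 12.91 in senescent cells, with SDs of 0.04 in each group (SE 0.04, limma's adjusted p = 2.1e-09). HNRNPM, HNRNPR and HNRNPAB differed by -0.98, -0.97 and -0.95, HNRNPUL1 by -0.80 and HNRNPL, which regulates alternative exons through CA-rich sites, by -0.79. HNRNPH3, HNRNPDL, HNRNPUL2 and HNRNPLL followed at -0.73, -0.71, -0.66 and -0.61.

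HNRNPC, which binds U-rich tracts, differed by -0.62, HNRNPA2B1 by -0.58 and HNRNPU, a scaffold-attachment protein, by -0.51. HNRNPK, which binds C-rich RNA, differed by -0.42 and HNRNPH1 by -0.41. The other HNRNPK probe set, 200097_s_at, also bright at 13.28 and 13.17, differed by -0.11 and did not pass (limma's adjusted p = 0.14). Its change differed from that of the brightest by 0.31 (limma's adjusted p = 0.0069), so the fall of HNRNPK rests on 1 probe set. HNRNPH1 213472_at (-0.01) and HNRNPLL 225385_s_at (0.06) did not pass either, while further probe sets of both genes fell. HNRNPA1, best known for silencing exons, fell by 0.38 (SE 0.10, limma's adjusted p = 0.0093), the smallest difference of the family. HNRNPA1 has many near-identical pseudogene copies, and without shared probe sets its difference was -0.28 and did not pass (limma's adjusted p = 0.20). HNRNPM likewise did not pass on its probe sets that are not shared (-0.36, limma's adjusted p = 0.10), the brightest of which was at 4.78 and 4.42, near background.

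The 11 SF3 and U2AF genes included 10 that fell and none that rose, with a median of -0.51. All 3 SF3A genes fell, with differences of -1.58 for SF3A2, -1.13 for SF3A3 and -0.52 for SF3A1. SF3A2 was at 6.79, 5.58, 6.62, 6.73 and 6.34 in proliferating and at 4.09, 5.10, 4.65, 5.26 and 5.09 in senescent cells, dim values that spread widely without overlapping. U2AF1, whose protein contacts the AG at the intron's 3' end, was at 11.61, 11.81, 11.46, 11.55 and 11.72 in proliferating and 10.08, 10.32, 10.16, 10.38 and 10.08 in senescent cells. With no overlap, U2AF1 fell by 1.43 (SE 0.09, limma's adjusted p = 1.8e-07), and its partner U2AF2 fell by 0.51. A dimmer U2AF1 probe set, 231904_at, at 5.68 and 5.21, differed by -0.47. Its change differed from that of the brightest by 0.96 (limma's adjusted p = 0.00081), so the size depends on the probe set.

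Of the 6 SF3B genes 5 fell, with a median of -0.26. SF3B1, the largest subunit and a target of splicing inhibitors, differed by -0.23, SF3B6, whose protein contacts the branch-point adenosine, by -0.25, SF3B2 by -0.27 and SF3B5 by -0.36. SF3B2 and SF3B5 did not pass with the ACTB covariate (limma's adjusted p = 0.054 and 0.25). SF3B4 was at 6.04 ± 0.04 and 6.01 ± 0.05 (SD, n = 5 each) and did not pass (limma's adjusted p = 0.44). SF3B3 fell by 1.10, from 10.57 ± 0.06 to 9.47 ± 0.11 (SD, n = 5 each), on a probe set named as shared. Its other probe set, at 5.67 and 5.89, differed by 0.23 and did not pass.

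Probe sets of a gene read different stretches of its transcripts, and for these families they often disagreed in size. The families had 179 tested probe sets, of which 139 fell and 8 rose (26.2% and 26.9% of all 32732 tested). For the 44 genes with several, each further probe set was compared with the gene's brightest one on the same array. Of 114 such comparisons 49 (43%) changed unequally, across 27 genes, where 28.8% of 13021 did over all genes (limma, adjusted p under 0.05). Restricted to further probe sets above the 60th percentile on at least 1 array, the shares were 39.2% of 102 and 25.7% of 10123. In 29 of the 49 comparisons both probe sets fell by different amounts, in 15 the further one did not pass, and in 5 it rose while the brightest fell. Calls in opposite directions, whichever of the pair rose, made up 4.39% of the 114 comparisons and 2.17% of those over all genes. An unequal change needs at least 1 of the 2 probe sets to change. Of the family genes 92.3% were called in either direction, against 61.3% of all genes tested. These shares are not adjusted for that, so they do not show that the families disagree more than other changed genes. Of the 49 further probe sets 9 were below the 60th percentile on every array, among them 1 each of SRSF7 and U2AF1 and 2 of LSM8.

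The 5 opposite comparisons came from SRSF1, SRSF11 and HNRNPC, named after their values were seen. Of 8 SRSF1 probe sets 5 fell and 2 rose. The brightest, 211784_s_at, was at 13.38, 13.28, 13.42, 13.33 and 13.54 in proliferating and 12.72, 12.69, 12.68, 12.65 and 12.70 in senescent cells. In contrast 226419_s_at was at 8.73, 8.16, 8.24, 8.17 and 8.37 and then at 9.41, 9.30, 9.47, 9.20 and 9.10, higher on every senescent array. It rose by 0.96 (limma's adjusted p = 5.4e-05 over probe sets), and its change differed from that of the brightest by 1.67 (SE 0.12, limma's adjusted p = 3.0e-06). The SRSF1 probe set 229246_at rose by 0.61 and 227164_at fell by 1.51. Where these probe sets lie in the gene was not tested.

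For SRSF11 the brightest probe set fell by 0.26 while 200685_at rose by 0.34, from 10.44 to 10.78, and 213742_at by 0.76, from 7.79 to 8.54. Both changes differed from that of the brightest (0.61 and 1.02, limma's adjusted p = 0.0031 and 0.00022), and the mean of the probe sets rose by 0.35 (limma's adjusted p = 0.020), so no direction is given for the gene as a whole, although its brightest probe set counts among the 58 that fell. HNRNPC had 6 probe sets that fell, between -0.91 and -0.43, and 1, 235500_at, that was at 2.93, 2.57, 2.63, 2.56 and 2.57 in proliferating and 5.67, 5.12, 4.73, 6.02 and 4.82 in senescent cells. That probe set went from background to a low signal and rose by 2.62 (SE 0.24). HNRNPD had 7 probe sets that fell, between -2.53 and -0.46, and 1 at 0.01 that did not pass, and the 5 of HNRNPU fell between -1.79 and -0.40. The lowest of each was below the 60th percentile in senescent cells.

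**Figure D3:**
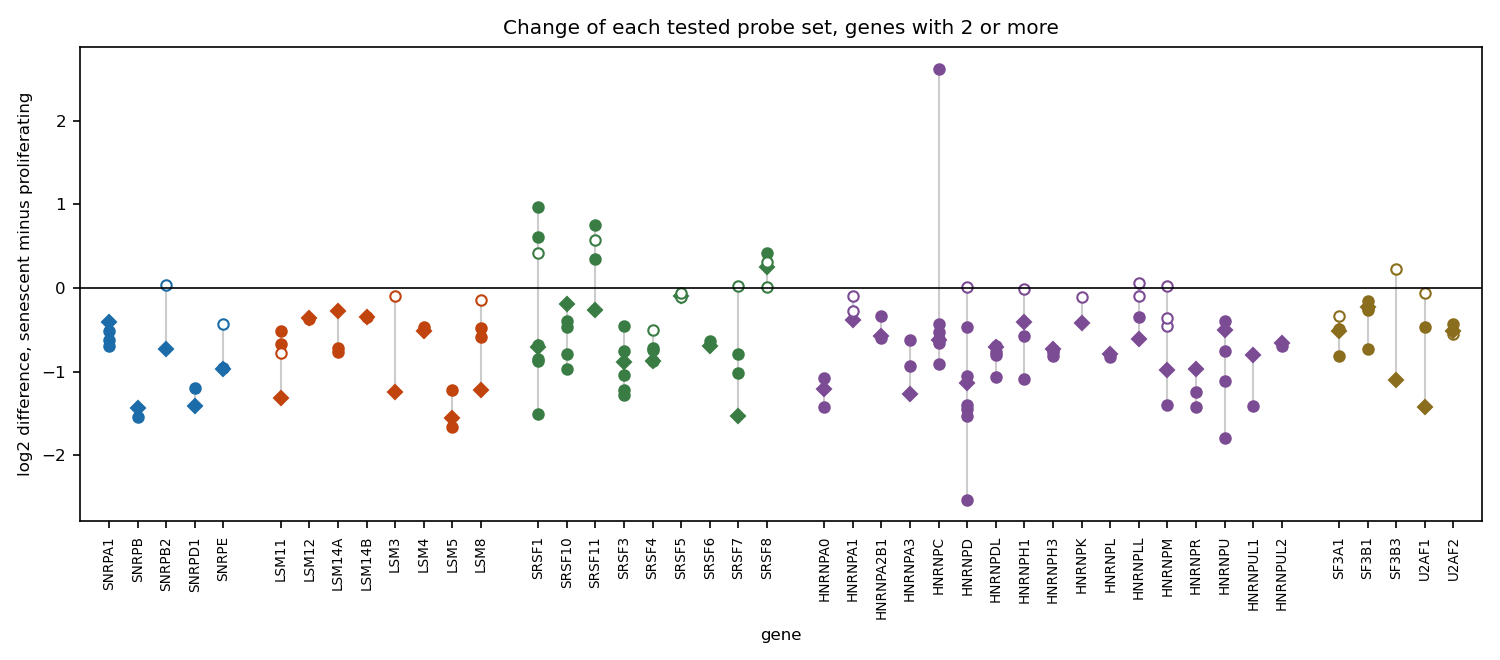
Log2 difference (senescent minus proliferating, 5 arrays each) of every tested probe set for the 44 family genes with 2 or more. Diamonds are the brightest probe set of a gene, circles the others, and filled marks passed limma's adjusted threshold over all probe sets. Filled circles above 0 are seen for SRSF1, SRSF11, SRSF8 and HNRNPC.

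The 250 bases before the genes' RefSeq starts (GRCh38.p14) were searched on both strands for short words bound by common promoter factors. A promoter was listed for 59 of the 65 genes. The ETS word CCGGAAG was present in 7 of 11 SNRP promoters (63.6%) and 7 of 10 SF3 and U2AF promoters (70.0%), against 15.3% of 10477 genes tested and 18.0% of those that fell. It was in 3 of 18 HNRNP, 2 of 10 SRSF and 1 of 10 LSM promoters. Over all members the ETS word was in 20 of 59 promoters (33.9%), and in 18 of 53 of the members that fell (34.0%). The CCAAT box was present in 12 of 18 HNRNP promoters (66.7%), where 35.4% of all genes tested have it, and in 1 of 10 SF3 and U2AF promoters. The E-box CACGTG was in 5 of 18 HNRNP promoters (27.8%) and 8.65% of genes tested. The E2F words TTTGGCGC and TTTCCCGC were in 3 of 59 member promoters (5.08%), beside 3.00% of genes tested and 4.19% of those that fell. The 10-base NRF1 word was in 1 of 59 (2.01% of genes tested), the YY1 word in 0 (0.573%) and the CHR words TTTGAA and TTTAAA in 8 (16.5%). These are counts of letters in a fixed window, and a match is a description, not a site.

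Shown are the promoters of the 2 largest falls in the SNRP and in the SF3 and U2AF genes that hold the ETS word, and in the HNRNP genes that hold the CCAAT box. They run 5′ to 3′ on the gene's strand and end at the base before the RefSeq start, with the word for which each was chosen (or its reverse complement) in capitals, ETS for the first 4 and CCAAT for the last 2. Other searched words stay in lower case, namely an ETS word in HNRNPF and an E-box in HNRNPA3. SNRPE was passed over because its window overlaps coding sequence. SNRPB is at chr20:2470790-2471039 (minus strand), SNRPB2 at chr20:16729776-16730025 (plus), SF3A2 at chr19:2236574-2236823 (plus), SF3A3 at chr1:37990023-37990272 (minus), HNRNPF at chr10:43408858-43409107 (minus) and HNRNPA3 at chr2:177212544-177212793 (plus).
SNRPB: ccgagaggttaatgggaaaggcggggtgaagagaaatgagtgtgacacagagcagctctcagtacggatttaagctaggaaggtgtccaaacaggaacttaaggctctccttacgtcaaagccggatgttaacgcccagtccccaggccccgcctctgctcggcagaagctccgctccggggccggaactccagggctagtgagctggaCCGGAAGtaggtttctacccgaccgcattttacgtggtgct
SNRPB2: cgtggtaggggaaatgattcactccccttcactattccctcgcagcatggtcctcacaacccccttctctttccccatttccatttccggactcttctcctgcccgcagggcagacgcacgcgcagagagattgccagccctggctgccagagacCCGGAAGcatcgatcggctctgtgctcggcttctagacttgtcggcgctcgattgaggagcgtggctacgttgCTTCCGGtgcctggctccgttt
SF3A2: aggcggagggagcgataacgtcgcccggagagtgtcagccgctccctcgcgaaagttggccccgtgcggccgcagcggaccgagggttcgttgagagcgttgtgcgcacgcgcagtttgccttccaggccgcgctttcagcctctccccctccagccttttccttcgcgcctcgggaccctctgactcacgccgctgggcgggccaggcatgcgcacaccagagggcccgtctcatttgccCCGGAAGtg
SF3A3: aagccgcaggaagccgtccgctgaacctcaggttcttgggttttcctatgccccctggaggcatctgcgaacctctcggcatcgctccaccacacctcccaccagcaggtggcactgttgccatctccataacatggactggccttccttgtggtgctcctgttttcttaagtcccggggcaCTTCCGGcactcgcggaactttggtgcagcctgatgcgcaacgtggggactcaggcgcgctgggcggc
HNRNPF: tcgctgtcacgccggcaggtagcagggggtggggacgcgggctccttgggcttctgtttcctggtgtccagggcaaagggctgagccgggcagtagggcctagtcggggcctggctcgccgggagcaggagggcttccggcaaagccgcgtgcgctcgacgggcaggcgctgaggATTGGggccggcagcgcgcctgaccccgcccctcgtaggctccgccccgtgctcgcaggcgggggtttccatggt
HNRNPA3: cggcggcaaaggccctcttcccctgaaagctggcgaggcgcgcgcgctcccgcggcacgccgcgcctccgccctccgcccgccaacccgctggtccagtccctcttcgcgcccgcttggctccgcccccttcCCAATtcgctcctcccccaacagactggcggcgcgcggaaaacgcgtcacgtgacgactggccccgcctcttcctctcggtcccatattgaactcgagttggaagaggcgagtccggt
The ETS word of SF3A2 starts 9 bases before the start and that of SNRPB 41 bases before it, while SNRPB2 holds the word on each strand, 95 and 22 bases before. SF3A3 has it on the opposite strand, 68 bases before its start. The CCAAT boxes of HNRNPF and HNRNPA3 begin 75 and 118 bases before the start, the former on the opposite strand.

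Other genes of RNA processing, taken from lists chosen with earlier results of these data known, are given beside the families. Of 64 further core spliceosome genes 44 fell (68.8%) and 5 rose (7.81%), with a median of -0.40. Over all genes tested 30.3% fell and 31.0% rose. The largest falls were those of BUD13 (-1.73), of PPIH, a cyclophilin of the tri-snRNP (-1.57), and of the U5 protein gene SNRNP40 (-1.38). RNPC3, a protein of the minor spliceosome, rose by 1.13, from 8.66 ± 0.09 to 9.79 ± 0.13 (SD, n = 5 each, limma's adjusted p = 2.3e-07), the RNA helicase gene DDX5 by 0.49 and SYF2 by 0.45. With the ACTB covariate 39 of the 64 fell and 3 rose.

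Of 19 genes for snRNP assembly and import 12 fell (63.2%) and 1 rose (5.26%, median -0.33), beside 30.3% and 31.0% of all genes tested. The SMN complex genes GEMIN2, GEMIN4 and GEMIN6 differed by -1.55, -1.43 and -1.06, and GEMIN8, close to background in proliferating cells, rose by 0.86. All 9 genes of a list around histone pre-mRNA processing, in which the U7 ring acts, fell, beside 30.3% of all genes tested. The median of the 9 was -0.85, with the exonuclease gene ERI1 at -1.61, NPAT at -1.18 and CASP8AP2 at -1.13. Of these 9 genes 7 fell with the ACTB covariate.

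Genes of kinases that phosphorylate SR proteins, listed together with an importin gene, were called in both directions, as were all genes tested. Of 8 kinase and import genes 4 rose and 3 fell (median 0.25). CLK4, SRPK2 and CLK1 rose by 0.32, 0.31 and 0.27, whereas DYRK1A, SRPK1 and the importin gene TNPO3, which carries SR proteins into the nucleus, fell (-0.64, -0.46 and -0.28). With housekeeping centring 2 rose and with the ACTB covariate 1 rose, while 3 fell in each. Over all 12909 genes housekeeping centring gave 4580 lower and 3270 higher, against 3909 and 4004 without it. SR-related proteins fell in 11 of 16 cases (68.8%) and 1 rose (6.25%, median -0.24), beside the same 30.3% and 31.0%. TRA2B was at -1.11, RSRC1 at -0.82 and SCAF4 at -0.61, and RSRP1 rose by 1.38 (9.14 ± 0.14 to 10.52 ± 0.11, SD, n = 5 each, limma's adjusted p = 1.2e-07).

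Among 38 other splicing regulators 26 fell (68.4%) and 3 rose (7.89%, median -0.49), beside 30.3% and 31.0% of all genes tested. CELF2, ILF2 and RBM10 differed by -1.52, -1.24 and -1.23, and RBM4, the muscleblind gene MBNL2 and SUGP2 rose by 0.63, 0.60 and 0.18. With housekeeping centring 2 genes of this list rose, and likewise with the ACTB covariate. Of 9 exon junction and nonsense-mediated decay genes 3 fell, the core genes MAGOHB (-1.34), RBM8A (-0.80) and EIF4A3 (-0.77), and 2 rose, SMG8 (0.73) and SMG5 (0.46). These shares, 33.3% and 22.2%, are close to or below those of all genes tested (30.3% and 31.0%). With housekeeping centring 5 fell, a setting in which more of all genes fell too (4580, against 3909 without it). Of 11 decapping genes, which work with the cytoplasmic Lsm ring, 4 fell (36.4%, near the 30.3% of all genes) and 1 rose (median -0.18), with DCPS at -1.43, PATL1 at -0.84, DCP1A at -0.45 and the exonuclease gene XRN1 at 0.24. None rose with housekeeping centring, where 6 fell, or with the ACTB covariate, where 4 fell. For comparison, 14 of 32 housekeeping genes fell (43.8%, above the 30.3% of all genes) and 7 rose (21.9%, below the 31.0%), with a median of -0.08. HPRT1 (-1.82), GPI (-1.12) and GUSB (-1.06) were lowest and ALAS1 (1.21), EMC7 (1.01) and REEP5 (0.69) highest. The largest limma adjusted p among the genes named from these lists was 0.039 (SUGP2).

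**Figure D4:**
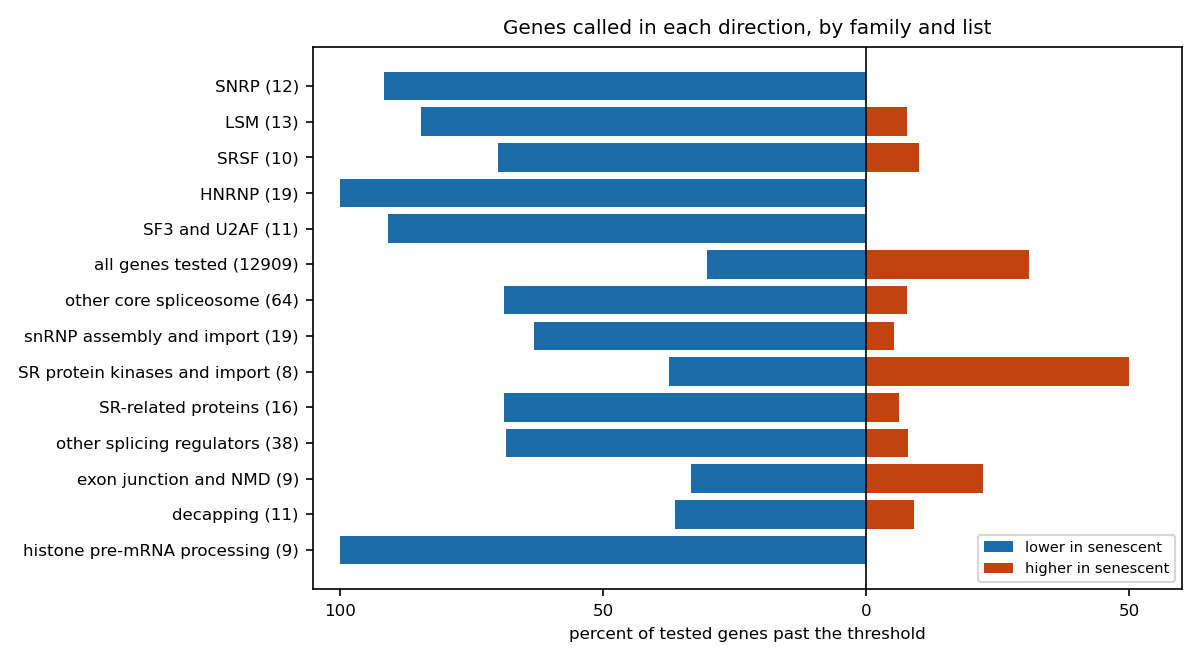
Percent of tested genes that passed limma's adjusted threshold lower (left of 0) or higher (right of 0) in senescent cells, for the 5 families, all genes tested and the lists of other RNA processing genes, with the number tested in brackets. The HNRNP and histone pre-mRNA processing bars reach 100% lower. The short list of SR protein kinases and import has 4 of 8 higher, beside 31.0% of all genes tested.

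The 5 genes that only share a prefix are not splicing factors. LSMEM1, a small membrane protein, rose by 1.08 from background (2.99 ± 0.27 to 4.07 ± 0.62, SD, n = 5 each) and stayed below the 60th percentile on every array. HNRNPD-DT, a divergent transcript beside HNRNPD, fell by 0.75 (limma's adjusted p = 0.031), with overlapping groups. The pseudogene HNRNPA3P1 was at background on all arrays, and LSMEM2 and SNRPF-DT did not pass the filter on low values.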

How the data were processed

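Expression was measured on 10 arrays, 5 per group. The deposited values are log2 values per probe set and array; Partek and GCRMA are listed in the submitters' processing notes, with settings not given in the sources used here, and the log base was read from the values. Array medians were 3.05 to 3.12, and the number of arrays limits the precision. Gene names come from the platform annotation, updated through gene identifiers of RefSeq (GRCh38.p14). Of 54675, 62 were controls, 1801 had several symbols and 11721 none. Tested were probe sets over the 40th percentile of the array on 5 or more arrays, and each gene was represented by the brightest of these on average. "Shared" are probe sets with _s, _x or _a in their name, which 34 of the 65 chosen ones were.

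Senescent minus proliferating means were compared by a two-sided moderated fit (lmFit, eBayes; limma 3.58.1, R 4.3.3), adjusted by Benjamini-Hochberg over all 12909 genes (or all tested probe sets, or all probe-set comparisons). Exact permutation tests were two-sided. Partner genes were compared as the change of their difference per array. In simulated data of 12909 genes, with 50 changed at each size, 32% of changes of 0.25, 54% of 0.5, 94% of 1 and 100% of 2 (log2) were recovered, with 6 false calls among 146. In the arrays themselves 61.3% of genes were called. The adjustment is then less strict, so these shares do not carry over to the results. Members and lists were chosen with earlier results of these data known. Named in full were up to 6 called genes per family and those against its majority, and up to 3 called genes per direction of a list. Alternatives were leaving out the filter or raising it to the 60th percentile, arrays centred on housekeeping genes or on the tested median, quantile normalization, a replicate block, trend and robust, array weights, an ACTB covariate, the mean of probe sets, no shared probe sets, 4 against 4 arrays, each array left out, counting probe sets and the exact permutation test. Correlations of same-numbered arrays were -0.04 to 0.10, so the numbers do not pair them. Figures used matplotlib 3.10.9.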

Additional observations from a re-analysis of the deposited data

Results flagged for a closer look

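In 9 of the 130 groups of 5 arrays (65 genes, 2 groups each) the furthest array was separated from the rest by more than 0.71 of the range, and chance gives about 1 in 20 groups. Senescent array 5 accounts for 4 of them. There HNRNPF was at 8.753 (next 9.403), HNRNPA2B1 at 13.67 (next 13.78) and HNRNPR at 12.09 (next 12.4), all low, and HNRNPUL1 at 11.93 (next 11.82), high. Proliferating array 5 was high for LSM1 at 12.24 and for SNRPN at 3.446. LSM2 was high on proliferating array 2 at 7.513, LSM10 low on proliferating array 4 at 5.446 (next 6.151), and HNRNPDL high on senescent array 2 at 13.73. The 4 against 4 comparison without proliferating array 2 and senescent array 5 gave 57 genes lower and 2 higher.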

How the results depend on the processing

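Of the 65 genes, 50 kept direction and side of the threshold under all of the 23 alternatives in which they were tested. Leaving out 1 array at a time, 55 to 58 genes fell and 2 rose, 24 to 28 genes had a diverging probe set, and family medians were -0.74 to -0.71 (SNRP), -0.86 to -0.53 (LSM), -0.50 to -0.45 (SRSF), -0.75 to -0.71 (HNRNP) and -0.54 to -0.48 (SF3 and U2AF). With the replicate block 56 fell and 2 rose. Counting probe sets gave 139 lower and 8 higher. Housekeeping centring left 1 gene higher, and so did the ACTB covariate. Medians that moved by more than 1 SD over arrays were, with housekeeping centring, -0.82 (SNRP), -0.57 (SRSF), -0.82 (HNRNP) and -0.61 (SF3 and U2AF). With the ACTB covariate they were -0.50 (LSM), -0.56 (SRSF) and -0.43 (SF3 and U2AF), and with the mean of probe sets -0.61 (LSM), -0.81 (HNRNP) and -0.43 (SF3 and U2AF). Without shared probe sets they were -1.22 (LSM) and -0.81 (SRSF), and in the 4 against 4 comparison -0.60 (LSM) and -0.57 (SF3 and U2AF). LSM was -0.60 with array weights, and SRSF -0.69 with the stricter filter and -0.45 with centring on the median of tested probe sets. The direction reversed for 2 genes: SRSF11 was 0.35 with the mean of probe sets and 0.34 without shared ones, and SF3B3 was 0.23 without shared ones, where other probe sets stand for the gene. Low signal limits LSM2, SNRPN and SRSF12.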
